A study of Mus musculus with 8 samples.

Results

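The expression of 10 genes was followed on Affymetrix Mouse430_2 arrays: the matricellular factors Ccn1 (formerly Cyr61) and Ccn2 (formerly Ctgf), and the contractile cytoskeleton genes Myl9, Tagln, Acta2, Cnn1, Tpm1, Tpm2, Cald1 and Vcl. The genes were chosen by the FoxO3 null minus wild type differences already seen in these arrays, in each set and between sets, among genes known to respond to YAP or SRF. Their genotype and interaction values are therefore descriptions and support nothing by themselves. The platform annotation gives them 26 of the 45037 probe sets tested, each with no other gene symbol, and all 26 are accounted for. Of these, 16 had a mean above the median of all probe set means, 6.28 on the log2 scale.

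RNA came from secondary neurospheres, floating clusters of neural stem and progenitor cells that were dissociated and regrown, cultured from mouse forebrain. The mice were FoxO3-/- (null mutant) or FoxO3+/+ (wild type), both of the FVB/N strain, with 4 arrays each. All cultures grew in medium with bFGF and EGF at 20 ng/ml each, were seeded at 50000 cells/ml and were collected on day 6. Titles number the arrays within set 1 and set 2, each of which holds 2 FoxO3 null and 2 wild type arrays. The labels used here give no age beyond the adult mice of the series title, no sex or number of animals, no description of the null allele, and no meaning of a set. Nor is it said that the paired arrays are separate cultures or mice, so p-values measure only the spread between arrays, which may be technical. FoxO3 is a forkhead transcription factor that Akt keeps out of the nucleus when growth factors are present, and the study asked about its role in neural stem cells.

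Ccn1 and Ccn2 encode secreted proteins that bind integrins and heparan sulfate in the matrix, and both are widely used readouts of YAP and TAZ, the coactivators that the Hippo kinases keep out of the nucleus and that act through TEAD factors. SRF binds a DNA element called the CArG box, and its coactivators MRTF-A and MRTF-B are released to the nucleus when G-actin is built into filaments. Many actin, myosin, tropomyosin and calponin family genes are SRF targets. In brain, Acta2, Tagln, Myl9 and Cnn1 are best known from mural cells of vessels, and cultured neural cells can also express actin-binding genes of this kind.

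The proximal promoters were searched for letters of the elements that SRF and TEAD factors bind. RefSeq promoter windows of 250 bases (build GRCm38.p6) were given for 8 of the 10 genes, with 2 windows for Cald1. Ccn2 and Tagln had none. Except for Ccn1, the windows reach past the outermost start annotated for the gene, so they are not wholly upstream of it. Distances are therefore counted back from the downstream end of each window. The search used the CArG box in its strict form, with A or T only between CC and GG, and GGAATG, the core of the TEAD motif, on both strands; the motifs did not overlap each other. A strict CArG box was in 2 of the 9 windows (Myl9 and Vcl), against 1.47% of all 32851 promoter windows. With 1 other letter allowed between CC and GG, a search added after seeing the data, such near forms were in 2 of the 9 windows, against 7.24% of all. Acta2 held 2 of them, 84 and 34 bases before the end of its window, and Myl9 held 1, 99 bases before the end of its window. GGAATG or its complement was in 5 of the 9 (Ccn1, Acta2, Tpm1, Vcl and a Cald1 window), against 12.6% of all windows. The genes were picked among known YAP or SRF responders, so these shares do not come from a neutral choice and nothing is read from them. A match describes the letters in this window and does not show that a factor binds there. The windows are shown for Myl9 and Acta2, which were higher in FoxO3 null arrays of both sets, and for Ccn1 and Vcl, whose differences were small. Capitals mark the strict CArG box in Myl9 (161 bases before the window's end) and Vcl (227 bases before it). They also mark GGAATG or its complement in Acta2 (146 bases), Ccn1 (103 bases) and Vcl (143 bases).
Myl9, chr2:156775214-156775463, plus strand: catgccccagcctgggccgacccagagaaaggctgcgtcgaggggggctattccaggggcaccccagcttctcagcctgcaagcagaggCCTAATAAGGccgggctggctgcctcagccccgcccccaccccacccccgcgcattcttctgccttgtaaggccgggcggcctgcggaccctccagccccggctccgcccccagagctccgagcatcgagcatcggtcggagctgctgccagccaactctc
Acta2, chr19:34255374-34255623, minus strand: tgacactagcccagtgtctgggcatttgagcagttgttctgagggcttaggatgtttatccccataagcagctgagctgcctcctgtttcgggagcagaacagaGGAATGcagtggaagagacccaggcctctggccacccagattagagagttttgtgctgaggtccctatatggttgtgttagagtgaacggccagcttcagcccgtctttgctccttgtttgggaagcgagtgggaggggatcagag
Ccn1, chr3:145649986-145650235, minus strand: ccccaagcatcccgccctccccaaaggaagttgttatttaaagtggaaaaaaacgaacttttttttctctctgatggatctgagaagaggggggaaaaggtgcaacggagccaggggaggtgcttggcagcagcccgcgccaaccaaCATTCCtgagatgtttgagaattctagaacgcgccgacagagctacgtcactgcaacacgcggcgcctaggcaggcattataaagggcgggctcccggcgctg
Vcl, chr14:20929148-20929397, plus strand: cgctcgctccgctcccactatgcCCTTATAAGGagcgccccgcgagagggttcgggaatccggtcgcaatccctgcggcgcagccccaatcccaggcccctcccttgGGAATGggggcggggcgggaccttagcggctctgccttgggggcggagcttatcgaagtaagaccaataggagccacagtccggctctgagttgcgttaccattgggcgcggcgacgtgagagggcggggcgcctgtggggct

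The arrays as a whole set the frame for these genes. At its brightest probe set, the targeted gene Foxo3 in FoxO3 null arrays lay between 8.86 and 9.14, and in wild type arrays between 10.00 and 10.32 (log2). A dim probe set of Foxo3 ran the other way (5.49 to 5.63 in FoxO3 null arrays and 5.06 to 5.49 in wild type arrays), and where the probes lie relative to the mutation was not analysed here. Array medians were 6.27 to 6.31, and arrays of the same set correlated at 0.996 or more, against at most 0.991 between sets. The mean of 3 Y-linked genes (Kdm5d, Uty, Eif2s3y) was 6.88 and 7.10 in FoxO3 null arrays of set 2 and 7.90 and 8.09 in those of set 1, against 7.66 to 8.35 in wild type arrays. The 3' minus 5' difference of the beta-actin control, a sign of RNA quality, was 0.33 to 0.49 in FoxO3 null arrays and 0.36 to 0.54 in wild type arrays, and separated the sets (0.33 to 0.39 in set 2 and 0.47 to 0.54 in set 1). Of the 14 measured neural stem and progenitor markers, 14 had a mean above the median of all probe sets, among them Sox2 and Vim. Each was read by its brightest probe set, and of all 18193 genes so read 11392 were above that median.

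Averaged over sets, 4 of the 10 genes had larger genotype differences than the rest. Judged by the leading probe set, the brightest of each gene, Ccn2, Myl9, Tagln and Acta2 differed by 0.48 to 1.06 on the log2 scale (FoxO3 null minus wild type, set as an additive term), and the other 6 by -0.13 to 0.11. The Tagln average of 0.52 ± 0.32 (SE) joined 1.48 in set 2 with -0.45 in set 1. The Acta2 difference was 0.83 in set 2 and 0.14 in set 1. With limma and Benjamini-Hochberg adjustment over all probe sets, 2 of the 26 probe sets passed at an adjusted p under 0.05, both higher in FoxO3 null arrays: that of Ccn2 and 1424768_at of Cald1. Over all probe sets 0.802% passed, 0.215% as higher and 0.586% as lower. The genes were chosen on this contrast, so nothing is read from the count. The median difference was 0.07 over the 26 probe sets and 0.01 over all probe sets. In bulk RNA, more cells of a type and more RNA per cell cannot be told apart.

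**Figure D1:**
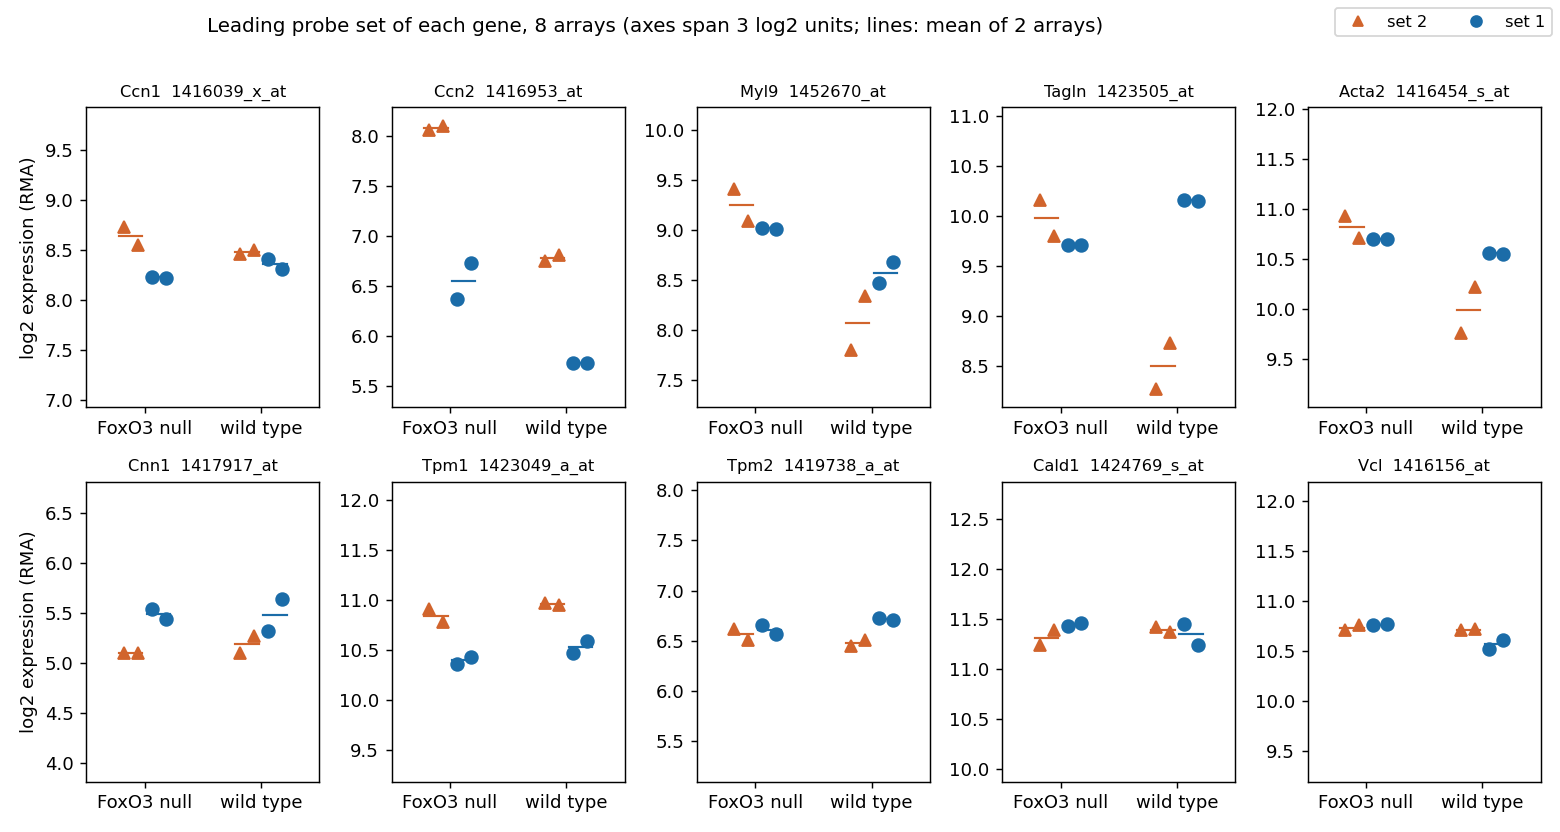
Log2 expression (RMA) of the leading probe set of each of the 10 genes, with FoxO3 null arrays left of wild type arrays, triangles for set 2, circles for set 1 and lines for the mean of 2 arrays. Ccn2 is higher in FoxO3 null arrays of both sets, whereas Tagln is higher in set 2 (10.16 and 9.80 against 8.27 and 8.72) and lower in set 1 (9.70 and 9.70 against 10.16 and 10.15).

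Ccn2 (probe set 1416953_at), known as connective tissue growth factor, had the largest difference of the 10 leading probe sets. In set 2 it read 8.06 and 8.09 in FoxO3 null arrays, against 6.75 and 6.81 in wild type arrays. In set 1 it read 6.37 and 6.73 in FoxO3 null arrays, against 5.73 and 5.73 in wild type arrays. The genotypes did not overlap within either set, but they overlapped across sets, because wild type arrays of set 2 lay above FoxO3 null arrays of set 1. The difference was 1.06 ± 0.10 (SE, n = 4 arrays each), or 2.08-fold. Within set 2 the value was 1.30 (SE 0.11) and within set 1 it was 0.82 (SE 0.11). Here and below, the SE within a set pools the spread of both sets, so it is equal in both and does not measure each set alone. Ccn2 lies on chromosome 10 from 24595442 to 24598683 (GRCm38.p6), 17.6 Mb from Foxo3. Of 383 probe sets within 20 Mb of Foxo3, with those of Foxo3 left out, 5 passed as higher and 6 as lower. That is 2.87%, against 0.802% of all probe sets, and Ccn2 itself is among the 383 and the 5. Whether alleles that travel with the null allele take part was not tested.

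Ccn1, the close relative of Ccn2, did not share that pattern. Its brightest probe set 1416039_x_at read 8.73 and 8.55 in FoxO3 null arrays of set 2, against 8.46 and 8.50 in wild type arrays. In set 1 it read 8.23 and 8.22 in FoxO3 null arrays, against 8.41 and 8.31 in wild type arrays. FoxO3 null arrays were thus above wild type in set 2 and below it in set 1, and the difference over both sets was 0.01 ± 0.07 (SE). The other 3 probe sets of Ccn1 differed by 0.13 to 0.19. In set 2 both FoxO3 null arrays were above both wild type arrays in 4 of the 4 probe sets, against 23.1% of all probe sets. The differences there were 0.16 to 0.38, in a contrast that served to choose the genes. Probe sets 1457823_at (mean 5.90) and 1442340_x_at (mean 5.80) were dim, below the median of all probe sets. The 4 probe sets are not independent measurements, since they read the same transcript. The suffix _x_at marks probes that can also bind other sequences.

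Myl9, the regulatory light chain of smooth muscle and non-muscle myosin, was higher in every FoxO3 null array than in any wild type array. The share of all probe sets that separate like this is not given here, and the contrast served to choose the gene. Its only probe set, 1452670_at, read 9.41 and 9.09 in FoxO3 null arrays of set 2, against 7.80 and 8.34 in wild type arrays. In set 1 it read 9.02 and 9.01 in FoxO3 null arrays, against 8.47 and 8.68 in wild type arrays. The difference was 0.81 ± 0.16 (SE, n = 4 each), or 1.75-fold. It came to 1.18 ± 0.16 in set 2 and 0.44 ± 0.16 in set 1. It did not pass over all probe sets, and passed when only the leading probe set of each gene was tested.

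Acta2, smooth muscle alpha-actin, behaved like Myl9 at a smaller size. Probe set 1416454_s_at read 10.92 and 10.70 in FoxO3 null arrays of set 2, against 9.76 and 10.22 in wild type arrays. In set 1 it read 10.69 and 10.70 in FoxO3 null arrays, against 10.55 and 10.55 in wild type arrays. No FoxO3 null array overlapped a wild type array in either set or across sets. Separation in this direction within each set held in 6.67% of all probe sets, and the share that separate across sets is not given here. The difference was 0.83 ± 0.14 (SE) in set 2 and 0.14 ± 0.14 in set 1. This SE pools the spread of both sets, and paired arrays lay closer together in set 1 than in set 2. The other 2 probe sets of Acta2 were dim, between 4.53 and 5.23 on all arrays, and differed by 0.04 and -0.09. The suffix _s_at marks probes shared by several transcripts, and actins are near-identical, so the assignment of this signal to Acta2 is uncertain.

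Tagln, which encodes the actin-binding protein transgelin (SM22-alpha), had the genotype difference that varied most between sets among the 26 probe sets. It lies on chromosome 9 from 45929628 to 45936058 (GRCm38.p6). Its only probe set, 1423505_at, read 10.16 and 9.80 in FoxO3 null arrays of set 2, against 8.27 and 8.72 in wild type arrays. In set 1 it read 9.70 and 9.70 in FoxO3 null arrays, against 10.16 and 10.15 in wild type arrays. FoxO3 null arrays were above wild type arrays by 1.48 ± 0.15 (SE) in set 2, or 2.79-fold, and differed by -0.45 ± 0.15 in set 1, or 0.732 of wild type. Averaged over sets the difference was 0.52 ± 0.32, which hides both. The difference in set 2 minus that in set 1 was 1.93 ± 0.21. It was the 1 of the 26 probe sets that passed the interaction test, against 0.0688% of all probe sets, in a comparison that served to choose it. The value lay between 1.71 and 2.16 with each array left out in turn. It did not pass without FoxO3 null arrays 1_1, 1_2 or 2_1 or without wild type arrays 1_1 or 1_2, which leave a group of a set with 1 array, assumed to vary like the others.

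The genotype that differed more between sets was not the same for all genes: of the 10 leading probe sets, 5 differed more in FoxO3 null arrays and 5 in wild type arrays. Tagln, Acta2 and Myl9 differed by 0.28, 0.12 and 0.23 in FoxO3 null arrays (set 2 minus set 1), and by -1.66, -0.57 and -0.50 in wild type arrays. Ccn2 and Ccn1 differed by 1.53 and 0.41 in FoxO3 null arrays, and by 1.05 and 0.12 in wild type arrays. The SD over the arrays of a genotype joins both sets, so it largely restates these differences. The SD over 4 FoxO3 null arrays was 0.22 for Tagln, 0.11 for Acta2, 0.89 for Ccn2 and 0.25 for Ccn1, and over 4 wild type arrays 0.97, 0.38, 0.61 and 0.08. In set 2 the 4 arrays fell in the same order for Ccn1, Myl9, Tagln and Acta2: FoxO3 null 2_1, FoxO3 null 2_2, wild type 2_2 and wild type 2_1, from high to low. Both FoxO3 null arrays lay above both wild type arrays there in 23.1% of all probe sets, in a contrast that served to choose the genes. The share of all probe sets with the full order was not counted, so nothing is read from it. In set 1 Ccn1 and Tagln shared an order, with wild type arrays above FoxO3 null arrays, and Myl9 and Acta2 did not follow it. Y-linked genes were also lowest in the FoxO3 null arrays of set 2. With their mean as a covariate, a fit chosen after seeing the data, the genotype differences were 0.84 for Ccn2, 0.06 for Myl9, -0.13 for Acta2 and -0.97 for Tagln, and 0 of the 26 probe sets passed with limma (5 at an unadjusted p under 0.05, and 0 of all 45037 adjusted). This covariate itself differed between genotypes, by -0.50, so the fit does not separate them.

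**Figure D2:**
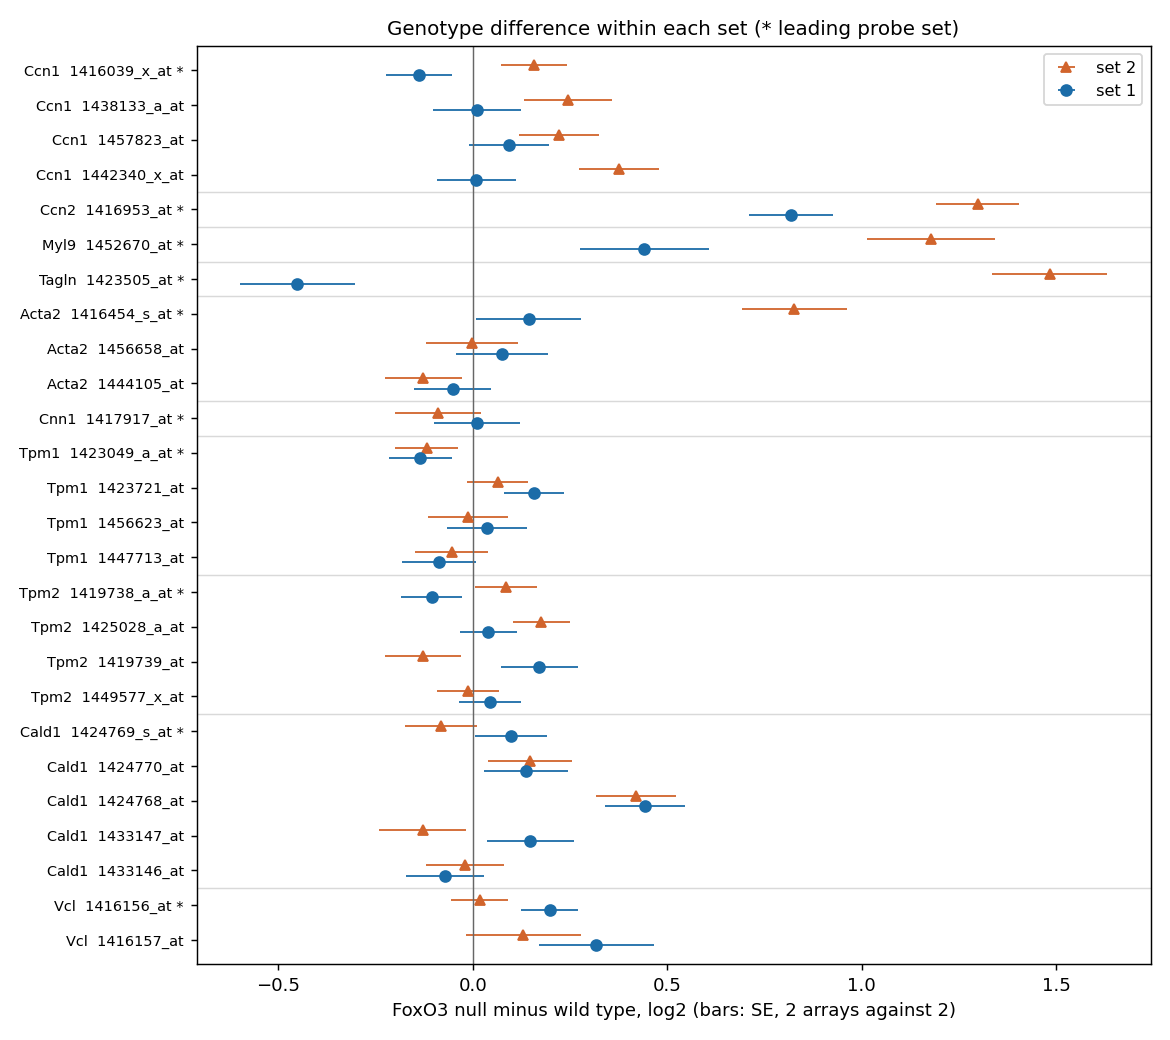
FoxO3 null minus wild type difference (log2) of all 26 probe sets within set 2 (triangles) and set 1 (circles). Bars show the SE, with the spread pooled over both sets, and an asterisk marks each gene's leading probe set. Ccn2 is right of 0 in both sets (1.30 and 0.82), while Tagln lies at 1.48 in set 2 and -0.45 in set 1.

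The remaining contractile genes differed little between genotypes. Calponin 1 (Cnn1), a calponin family relative of transgelin, was dim at 5.10 to 5.54 in FoxO3 null arrays and 5.10 to 5.64 in wild type arrays, with a difference of -0.04 ± 0.08 (SE). The tropomyosins, which lie along actin filaments, stayed close too. Tpm1 had 4 probe sets with differences of -0.13 to 0.11, and its 2 brightest disagreed: 1423049_a_at was below wild type in both sets (-0.12 in set 2 and -0.14 in set 1), and 1423721_at above it in both (0.06 and 0.16). Tpm2 had 4 probe sets with differences of -0.01 to 0.11. The Tpm genes are spliced into many isoforms, and the isoforms behind each probe set were not analysed here.

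Cald1, caldesmon, which restrains actomyosin, differed by probe set. Its leading probe set 1424769_s_at read between 11.24 and 11.46 in FoxO3 null arrays and between 11.24 and 11.45 in wild type arrays, a difference of 0.01 ± 0.07 (SE). Probe set 1424768_at read 9.31 and 9.53 in FoxO3 null arrays of set 2, against 9.04 and 8.96 in wild type arrays. In set 1 it read 8.77 and 9.01 in FoxO3 null arrays, against 8.45 and 8.45 in wild type arrays. The genotypes did not overlap in either set, with a difference of 0.43 ± 0.07 over both sets, 0.42 in set 2 and 0.44 in set 1. Its call was lost in 6 of the 8 fits that left out 1 array and held without FoxO3 null array 1_1 or 2_1. The other 3 probe sets differed by -0.05 to 0.14. Vcl, vinculin of focal adhesions, differed by 0.11 ± 0.06 and 0.22 ± 0.11 in its 2 probe sets. In the brighter of them, 1416156_at, set 2 gave 0.02, with the genotypes overlapping, and set 1 gave 0.20.

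Counted over all 26 probe sets, both FoxO3 null arrays were above both wild type arrays in 13 in set 2 and in 8 in set 1, against 23.1% and 21.4% of all probe sets. They were below in 4 in set 2 and in 4 in set 1, against 18.8% and 17.0%. They were above in each set in 6, against 6.67%: Ccn2, Myl9, 1 of 3 of Acta2, 1 of 4 of Tpm1, 1 of 4 of Tpm2 and 1 of 5 of Cald1. These counts rest on the contrast that chose the genes.

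The difference between sets was not used to choose the genes and could be tested. With genotype as an additive term, 10 of the 26 probe sets passed for set by limma (adjusted over all 45037). In set 2, 8 were higher and 2 lower, against 19.5% and 18.9% of all probe sets. The beta-actin 3' minus 5' difference was also lower in every array of set 2 than in any of set 1, and its part in the set differences was not tested. Ccn2 averaged 7.43 in set 2 and 6.14 in set 1, a difference of 1.29 ± 0.10 (SE; limma adjusted p = 1.39e-05), and was higher in the 4 arrays of set 2 than in any of set 1. Ccn1 was higher in set 2 by 0.65 ± 0.08 in 1438133_a_at (limma adjusted p = 0.000248) and by 0.27 ± 0.07 in 1416039_x_at (limma adjusted p = 0.016). The other 2 probe sets of Ccn1 did not pass for set (0.08 and 0.22), with 0.02 and 0.04 in wild type arrays.

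Among the contractile genes the sets differed in both directions. Tpm1 was higher in set 2 in 3 of 4 probe sets, with 0.44 ± 0.06 (SE) in the leading one (limma adjusted p = 0.000194). Cald1 was higher in 2 of 5, led by 1424768_at with 0.54 ± 0.07 (limma adjusted p = 0.000217), while its leading probe set gave -0.04 ± 0.07. Cnn1 was lower in set 2 by a log2 difference of -0.34 ± 0.08 (limma adjusted p = 0.00565), and Tpm2 was lower in 1 of 4 probe sets. Myl9, Tagln, Acta2 and Vcl did not pass. For Tagln the average set difference of -0.69 ± 0.32 again joined a drop in wild type arrays with a small opposite difference in FoxO3 null arrays.

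**Figure D3:**
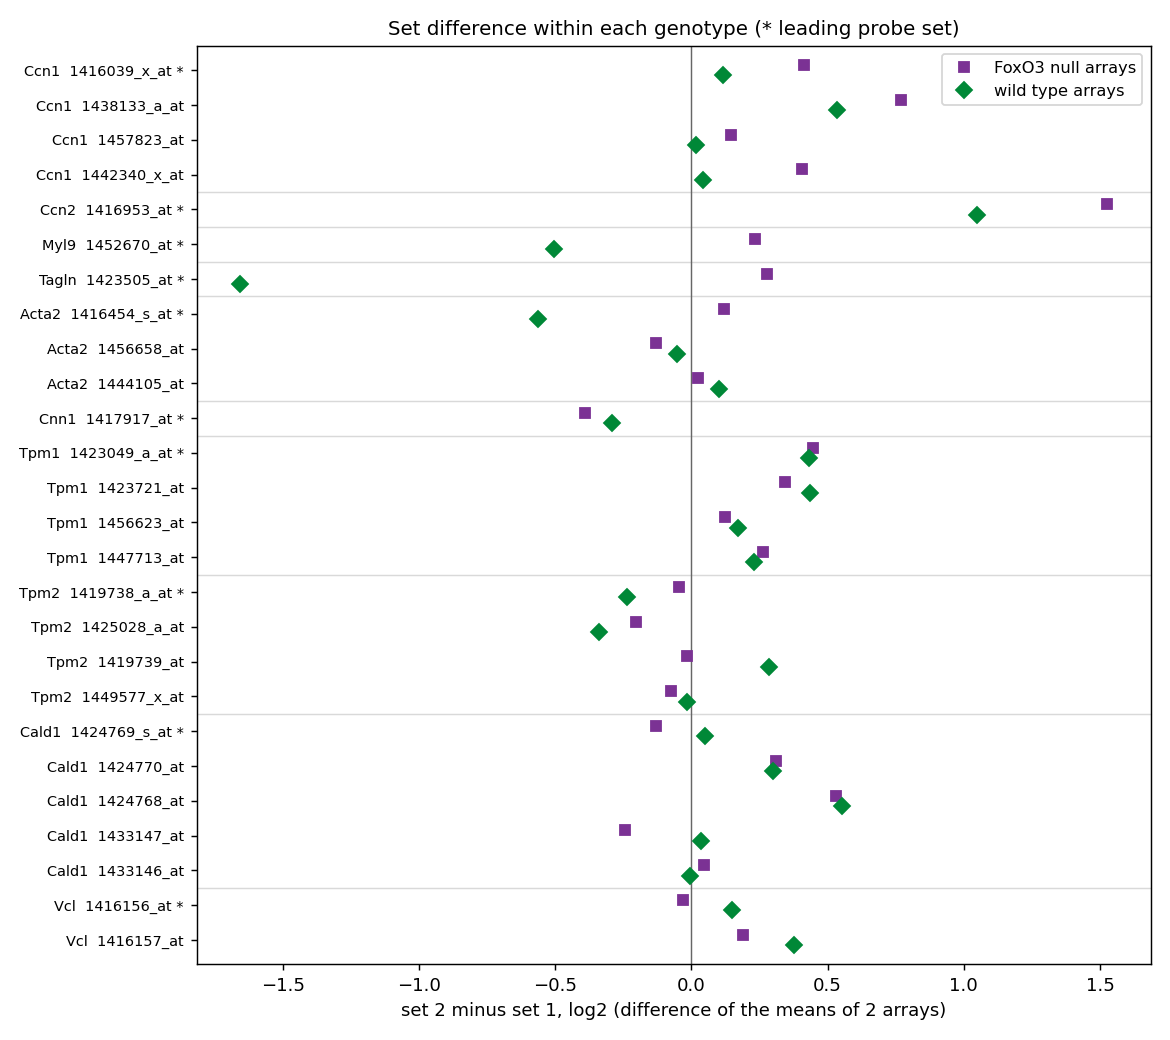
Set 2 minus set 1 difference (log2, means of 2 arrays) of all 26 probe sets in FoxO3 null arrays (squares) and wild type arrays (diamonds), with an asterisk at each gene's leading probe set. Ccn2 is higher in set 2 in both genotypes (1.53 and 1.05), and Tagln shows 0.28 in FoxO3 null arrays and -1.66 in wild type arrays.

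The upstream factors and other genes of these pathways were read from lists, each gene by its leading probe set. Over all 18193 genes so read, 0.242% passed as higher and 0.874% as lower in FoxO3 null arrays, with a median of 0.01, and 14.5% had an unadjusted p under 0.05. In the Hippo list, 9 of 25 measured genes had an unadjusted p under 0.05, all higher in FoxO3 null arrays. The list median was 0.08, and after adjustment 2 genes passed, both higher. They were Vgll3, a TEAD cofactor, with 0.49 ± 0.08 (SE; limma adjusted p = 0.0286), and Ajuba, a LIM protein that restrains LATS kinases, with 0.40 ± 0.07 (limma adjusted p = 0.0417). Vgll3 was dim, with a mean of 4.75. Yap1 averaged 10.29 ± 0.11 in FoxO3 null arrays and 10.13 ± 0.08 in wild type arrays (SD, n = 4 each), and Wwtr1, which encodes TAZ, averaged 11.14 ± 0.17 and 11.23 ± 0.21. Neither difference passed (limma adjusted p = 0.293 and 0.619).

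Among 25 other YAP and TEAD targets, Ajuba alone passed (10 at an unadjusted p under 0.05, in both directions), and the median was 0.03. Some genes stand in both this list and the Hippo list. The lists were chosen with earlier results of these data known, so nothing is read from the unadjusted counts. The next smallest p belonged to Arhgef17, at 0.26 ± 0.06 (SE; limma adjusted p = 0.112). None of the 4 other CCN genes passed (0 at an unadjusted p under 0.05). Ccn3 had 0.27 ± 0.12 and Ccn6 0.05 ± 0.05, both from dim probe sets.

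SRF and its partners did not pass, with 0 of 7 by limma and 0 at an unadjusted p under 0.05. Srf averaged 8.93 ± 0.13 in FoxO3 null arrays and 8.79 ± 0.05 in wild type arrays (SD, n = 4 each). The coactivators Mrtfa and Mrtfb differed by -0.05 ± 0.07 and 0.11 ± 0.06 (SE). Of 37 other SRF and MRTF targets 0 passed by limma (13 at an unadjusted p under 0.05), with a median of 0.02. The smallest p-values belonged to Flna, the actin crosslinker filamin A, at 0.21 ± 0.05 (limma adjusted p = 0.112), and Actn4, an alpha-actinin, at 0.19 ± 0.05 (limma adjusted p = 0.136).

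In the TGF-beta list, a pathway known to induce Ccn2, Tagln and Acta2 in other cells, the receptor Tgfbr2 rose by 0.45 ± 0.09 (SE; limma adjusted p = 0.0475). It was the 1 of 18 genes that passed, and the corepressor Ski had 0.15 ± 0.06. The calls of Vgll3, Ajuba and Tgfbr2 were each lost in 6, 7 and 7 of the 8 fits that left out 1 array, with values of 0.42 to 0.54, 0.34 to 0.46 and 0.38 to 0.53. Vgll3 passed without FoxO3 null array 1_1 or 2_1, Ajuba without FoxO3 null array 2_2, and Tgfbr2 without FoxO3 null array 2_1.

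**Figure D4:**
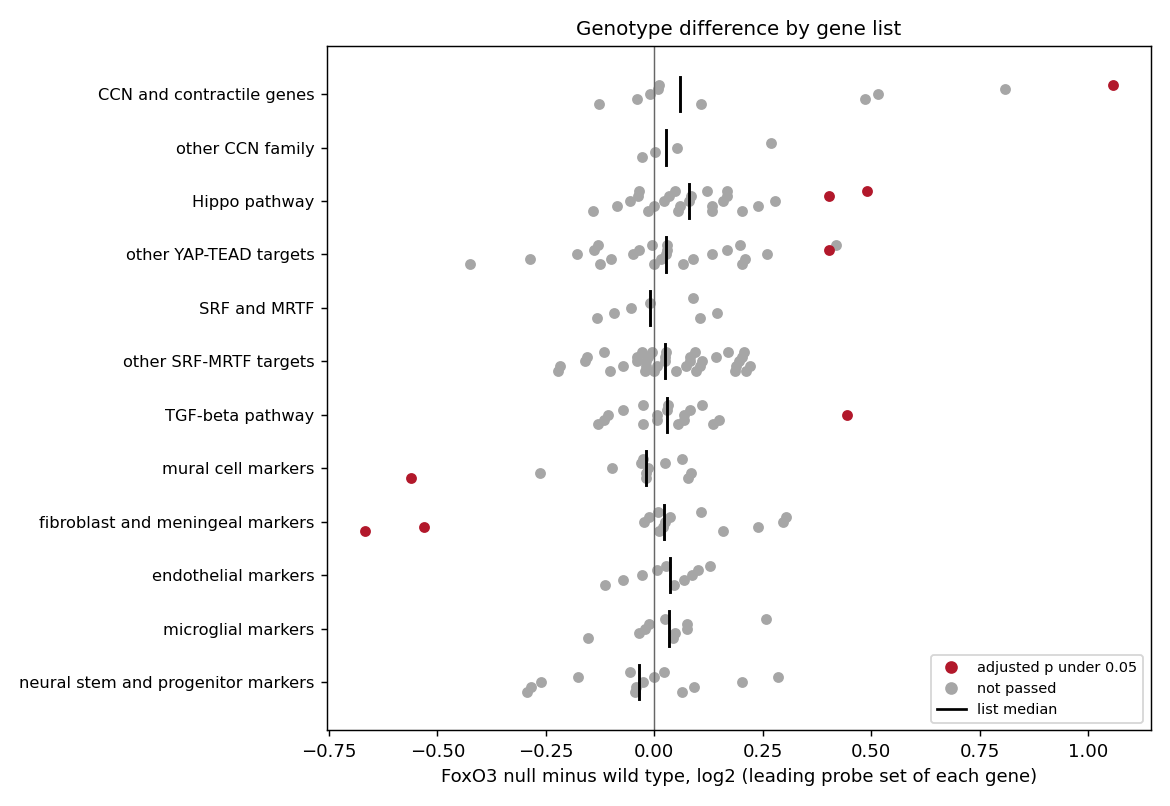
FoxO3 null minus wild type difference (log2) of each gene by its leading probe set, for the 10 CCN and contractile genes and 11 other lists, with red points for genes that passed at an adjusted p under 0.05 and black lines for list medians. The medians of the other lists lie between -0.03 and 0.08, and 6 of their genes passed, 3 to the right of 0 (Ajuba stands in 2 lists) and 3 to the left.

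Markers of other cell types were mostly dim, and the part of such cells in the differences of Tagln, Acta2 and Myl9 was not tested. Of 12 mural cell markers 4 had a mean above the median of all probe sets. Among all 18193 genes read by their brightest probe set 11392 did, a share that also stands beside the lists below. The mean log2 level of the mural markers was 6.23 to 6.31 in FoxO3 null arrays and 6.25 to 6.43 in wild type arrays. The smooth muscle myosin Myh11 averaged 5.10 ± 0.21 in FoxO3 null arrays and 5.07 ± 0.07 in wild type arrays (SD, n = 4 each), and Pdgfrb, the pericyte receptor, 5.81 ± 0.14 and 5.83 ± 0.17, both below the median of all probe sets. By set, Myh11 differed between genotypes by 0.19 in set 2 and -0.14 in set 1, and Pdgfrb by 0.01 and -0.05. Neither passed the interaction test (limma adjusted p = 0.689 and 0.970). These defining markers were named after their values were seen. Cspg4, shared with oligodendrocyte progenitors, fell by 0.56 ± 0.08 (SE; limma adjusted p = 0.0168), and Notch3 had -0.26 ± 0.06 (limma adjusted p = 0.107). Cspg4 did not pass in 5 of the 8 fits that left out 1 array (values -0.63 to -0.50), and passed without FoxO3 null arrays 1_1 or 1_2 or wild type array 1_2.

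Of 14 fibroblast and meningeal markers 3 were above that median, with a mean level of 5.92 to 6.25 in FoxO3 null and 5.99 to 6.17 in wild type arrays. There Pdgfra, again a progenitor gene too, fell by 0.67 ± 0.09 (SE; limma adjusted p = 0.0108) and Fn1, fibronectin, fell by 0.53 ± 0.06 (limma adjusted p = 0.00572). Pdgfra did not pass without wild type array 2_1 (value -0.67). Of 10 endothelial and 10 microglial markers 0 passed by limma (1 in each list at an unadjusted p under 0.05), and 3 in each were above the median. Their mean levels were 5.62 to 5.73 and 5.33 to 5.56 in FoxO3 null arrays, against 5.52 to 5.70 and 5.35 to 5.47 in wild type arrays. Tek and Esam in the endothelial list had 0.13 and 0.09, and P2ry12 and Tmem119 in the microglial list 0.26 and -0.15. Of the 14 neural stem and progenitor markers 0 passed by limma (5 at an unadjusted p under 0.05). Nestin (Nes) had 0.29 ± 0.06 (limma adjusted p = 0.0567) and the Notch effector Hes5 -0.29 ± 0.08. The mean level of these markers was 10.40 to 10.47 in FoxO3 null arrays and 10.43 to 10.52 in wild type arrays.

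Finally, genes outside the 10 were ranked by how closely they followed Ccn2, Myl9 or Tagln over the 8 arrays, after centring within each set, with Pearson's r as the measure. Arrays of a set and genotype share whatever the set stands for, so r is a description. Closest to Ccn2 were Frk (r = 0.994), Tmem181a, Srebf1, Cyb5b and Prmt6, with genotype differences of 0.14 to 0.40, below the 1.06 of Ccn2. Closest to Myl9 were Hmgn1 (r = 0.998), Ipo5, Kmt5b, Gtf2ird2 and Slc14a2, with differences of 0.08 to 0.49. Closest to Tagln were Thoc1 (r = 0.985), Eya1, Slc23a4, Nucb2 and Dtnbp1. Of these Eya1 had the largest swing between sets, with 0.86 in set 2 and -0.33 in set 1, against 1.48 and -0.45 for Tagln. The 15 genes held no member of the YAP, SRF or TGF-beta lists. These lists hold only a small part of the 18193 genes ranked, so nothing is read from that.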

How the data were processed

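The deposited values are log2 expression per probe set, for which the submitters' processing notes name RMA. RMA normally combines background correction, quantile normalization and probe summarisation. Its version, and whether the 8 arrays were processed together, are not given in the sources used here. RMA compresses differences of dim probe sets, and every change is relative to the other probe sets of the array.

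The 64 control probe sets were left out of the 45101. Names came from the platform annotation, positions and promoters from RefSeq (GRCm38.p6). limma 3.58.1 in R 4.3.3 (lmFit, eBayes) was fitted to all 45037 probe sets, two-sided, with set and genotype as additive terms or with their interaction, and adjusted by Benjamini-Hochberg over all of them; no filter was used. The additive fit was tested on simulated data. Within-set differences and their SE came from a limma fit with a mean per set and genotype, whose spread was pooled over all arrays. The number of arrays limits the precision.

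The genes and the pathway and marker lists (168 measured genes, 176 of 182 entries) were chosen with earlier results of these data known; 1 further list is not reported here. Named list genes are up to 4 that passed by smallest p, or the 2 smallest p where fewer than 2 passed, plus Yap1, Wwtr1, Srf, Mrtfa and Mrtfb. Alternatives covered the set term, a replicate block, random blocks and means, normalization, filters, variance model, thresholds, probe set choice and each array left out. The Y-linked covariate, the block fits of the lists and the wild type set difference were added after seeing the data.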

Additional observations from a re-analysis of the deposited data

Results flagged for a closer look

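In 4 probe sets an array lay far from the others of its genotype, with a ratio of the gap to the group's range (Dixon's ratio) above its critical value. They were Acta2 1416454_s_at in FoxO3 null array 2_1 (0.951), Cald1 1433146_at in FoxO3 null array 1_2 (0.929), Vcl 1416156_at in FoxO3 null array 2_1 (0.858) and Tpm1 1456623_at in wild type array 1_1 (0.922). Of 52 groups tested 4 exceeded it. The rate of about 1 in 20 by chance assumes arrays from 1 source and independent groups. Here each group joins both sets, and probe sets of a gene are not independent, so the count cannot be set against that rate. Tagln had a genotype difference larger in set 2 than in set 1 by 1.93 in the interaction test.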

How the results depend on the processing

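Ccn2 passed in each of the 8 fits that left out 1 array (differences 1.00 to 1.18), and the second call, of Cald1, did not; the number of the 26 probe sets passing the genotype test lay between 1 and 2. It was 1 at an adjusted p threshold of 0.01 and with replicate arrays averaged, 0 with no set term, in set 1 alone and with the Y-linked covariate (3, 5 and 5 at an unadjusted p under 0.05), 2 in set 2 alone (Ccn2 and Tagln) and 3 with a random block (Myl9 added). Calls over all probe sets moved too: 361 as reported, 39 averaged, 3 with no set term, 42 in set 1, 146 in set 2, 0 with the covariate, 138 with a replicate block, 1354 with a random block and 827 with a variance trend. Deviations of FoxO3 null and wild type arrays of the same number correlated at 0.07 in set 1 and -0.06 in set 2. With 2 arrays per set and genotype this is a single contrast per set, which cannot show whether arrays were prepared in pairs. With a replicate block 1 probe set passed. Interaction calls were 0 to 1 with an array left out (4 to 6 unadjusted in the fits with 0) and 0 at 0.01. In the other lists 6 genes passed, against 1 to 4 with an array left out, 1 at 0.01, 12 with a variance trend, 16 with a random block, 3 with a replicate block, and 0 with replicate arrays averaged, no set term or the Y-linked covariate (37, 20 and 26 unadjusted). The cause was not tested. The number of probe sets differing between sets was 7 to 13 in all alternatives run. The sign of 2 set differences that had not passed was turned: Cald1 1424769_s_at gave 0.0066 without FoxO3 null array 2_1 (-0.101 to 0.0066 with each array left out) and 0.049 in wild type arrays alone, and Myl9 gave 0.045 without wild type array 2_1 (-0.273 to 0.045). The 10 dimmer probe sets, at or below the median signal, limit what can be seen.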
